A study of Mus musculus with 35 samples.

Results

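The genes described here encode the 3 best-known families of nuclear RNA-binding proteins: the heterogeneous nuclear ribonucleoproteins (Hnrnp genes), the serine/arginine-rich splicing factors (Srsf genes) and the RNA-binding motif proteins (Rbm genes). Members were the genes whose symbol began with Hnrnp, with Srsf and a digit, or with Rbm and a digit, and whose mean expected count over 35 libraries was at least 10. The cold-inducible gene Rbm3 and genes named as pseudogenes were left out by the same rule. Of 45706 genes in the table, 77 had such a symbol and 61 were members: 20 Hnrnp, 10 Srsf and 31 Rbm genes. The other 16 were 10 genes with a mean count under 10, 5 pseudogenes and Rbm3. The count limit split the symbols cleanly, since the members nearest to it, Rbm38 and Rbm41, had mean counts of 84.3 and 106, and the nearest genes below it, Rbm3os and Rbm44, had 9.62 and 1.83. All 61 members also passed the filter on low counts used in the tests.

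The libraries were bulk RNA sequencing of microglia sorted from the whole spinal cord of mice by the surface proteins CD11b and CD45. The rNLS8 mice carry a tetracycline transactivator under the promoter of the neurofilament gene NEFH, which is active in neurons, and a tetO-hTDP43 transgene that makes human TDP-43 when doxycycline is removed from the diet. All mice were of the labelled strain mixed C57BL/6J X C3HeJ F1 and stayed on doxycycline until 8 to 12 weeks of age. Early disease was rNLS8 mice 2 weeks off doxycycline (7 libraries), late disease was rNLS8 mice 6 weeks off it (7), and recovery was rNLS8 mice 6 weeks off it and then 1 week back on it (7). The 14 controls pooled 2 genotypes: 6 rNLS8 mice that never left doxycycline and 8 littermates without the transgenes (WT), of which 4 were 2 weeks off it, 1 was 6 weeks off it and 3 were 6 weeks off it and 1 week back on it.

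hnRNP proteins coat nascent transcripts and often repress nearby splice sites, whereas SR proteins bind exonic enhancers through their RNA recognition motifs and recruit the spliceosome through their serine/arginine-rich tails. Many of these genes keep their own protein level in check by splicing part of their transcripts into forms that carry a premature stop codon and are destroyed by nonsense-mediated decay. TDP-43 itself is an hnRNP-like protein, and in amyotrophic lateral sclerosis it leaves the nucleus of motor neurons. Gene annotation (GENCODE release 21 for mouse) listed a transcript marked for nonsense-mediated decay in 9 of 10 Srsf genes (90%), 10 of 20 Hnrnp genes (50%) and 10 of 31 Rbm genes (32.3%), against 29.9% of 11158 protein-coding genes with a mean count of at least 10. Retained-intron transcripts were annotated in 8 Srsf, 14 Hnrnp and 21 Rbm genes. The deposited values are per gene, so they add up productive and unproductive transcripts, and a higher value of these genes need not be more protein.

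Promoters are shown for members that moved in late disease and whose 250 bases before the start held no annotated exon, so that regulatory sequence is all that is printed, and all 5 such members are given. They come from RefSeq (GRCm38.p6), which matched 54 of the 61 members. Capitals mark the CCAAT box (CCAAT or, on the other strand, ATTGG) and the GC box (GGGCGG or CCGCCC), and each sequence ends at the base before the start. The 4 genes printed first, Hnrnpa1 (chr15:103240147-103240396, plus strand), Hnrnpul1 (chr7:25754760-25755009, minus strand), Hnrnph1 (chr11:50376740-50376989, plus strand) and Srsf6 (chr2:162931258-162931507, plus strand), rose in late disease, and Rbm14 (chr19:4811635-4811884, minus strand) fell.
Hnrnpa1: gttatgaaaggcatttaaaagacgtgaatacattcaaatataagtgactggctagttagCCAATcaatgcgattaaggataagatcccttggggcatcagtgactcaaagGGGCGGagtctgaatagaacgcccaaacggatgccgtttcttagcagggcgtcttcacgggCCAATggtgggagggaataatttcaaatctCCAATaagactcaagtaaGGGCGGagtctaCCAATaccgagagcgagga
Hnrnpul1: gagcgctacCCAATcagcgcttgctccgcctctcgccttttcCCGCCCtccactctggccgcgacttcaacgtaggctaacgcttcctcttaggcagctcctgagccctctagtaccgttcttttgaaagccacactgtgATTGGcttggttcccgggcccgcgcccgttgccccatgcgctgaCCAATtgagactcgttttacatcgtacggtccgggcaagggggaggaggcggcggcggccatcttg
Hnrnph1: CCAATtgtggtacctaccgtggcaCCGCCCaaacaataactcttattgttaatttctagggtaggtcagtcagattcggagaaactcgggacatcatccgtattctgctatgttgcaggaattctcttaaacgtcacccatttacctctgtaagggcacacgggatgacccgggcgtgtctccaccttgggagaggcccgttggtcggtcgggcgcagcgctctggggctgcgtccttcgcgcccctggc
Srsf6: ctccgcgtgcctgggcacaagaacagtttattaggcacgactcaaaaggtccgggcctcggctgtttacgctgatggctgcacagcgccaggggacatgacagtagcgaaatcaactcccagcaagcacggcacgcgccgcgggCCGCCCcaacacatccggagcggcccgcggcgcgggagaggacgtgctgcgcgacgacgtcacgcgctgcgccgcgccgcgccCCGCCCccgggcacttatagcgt
Rbm14: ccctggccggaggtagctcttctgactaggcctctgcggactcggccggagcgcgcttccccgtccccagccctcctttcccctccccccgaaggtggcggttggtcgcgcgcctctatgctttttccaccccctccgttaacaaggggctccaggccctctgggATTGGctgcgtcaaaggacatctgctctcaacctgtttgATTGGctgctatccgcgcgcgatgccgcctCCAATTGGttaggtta

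The 5 promoters differed in these boxes. CCAAT boxes stood within the last 110 bases in Hnrnpa1, Hnrnpul1 and Rbm14, so in the gene that fell and in 2 of the 4 that rose. In Hnrnph1 the only match lay 250 bases before the start, and Srsf6 had a pair of GC boxes and no CCAAT box. In Rbm14 the 2 matches closest to the start overlap on opposite strands. Over the 54 promoters, CCAAT was present in 50% and GGGCGG in 57.4%, against 34.5% and 32.9% of 27025 RefSeq promoters of the same length searched on both strands. The median count of CpG (C followed by G) was 19 in member promoters and 6 in all promoters. The background was matched neither for CpG nor for expression. The GC box was in 9 of 10 Srsf promoters (90%), 13 of 18 Hnrnp promoters (72.2%) and 9 of 26 Rbm promoters (34.6%). CCAAT was in 5 of the 10 promoters of members that rose and in 5 of the 6 listed promoters of members that fell. The ETS core CCGGAAG was in 18.5% of member promoters and 7.05% of all promoters, and TATAAA in 13% of both. TGACGTCA and the core of the NRF1 motif were in none of the 54, against 1.62% and 0.781% of all promoters. These matches describe letters in a window and no binding was measured.

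All 3 families were abundant in the sorted cells. Levels between genes are compared in the deposited TPM, which accounts for transcript length. Hnrnpk, whose KH-domain protein binds cytosine-rich RNA, led the Hnrnp family with a mean of 704 TPM over the 35 libraries and made up 30.3% of the family's sum. Hnrnpf, whose protein binds runs of guanine, followed with 412 TPM, and Hnrnpa2b1, a repressor of splice sites and carrier of RNA, with 193 TPM. Srsf9 (311 TPM), Srsf5 (228 TPM) and Srsf3 (195 TPM) led the Srsf genes and together held 57.4% of that family's sum. Rbm39 (295 TPM), which encodes a partner of the splicing factor U2AF, led the Rbm genes, ahead of Rbm5 (137 TPM) and Rbm42 (104 TPM). The lowest members were Hnrnpul2 (3.09 TPM) and Rbm41 (3.56 TPM), and the median member had 57.7 TPM among Hnrnp, 83.2 TPM among Srsf and 17.8 TPM among Rbm genes.

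Summed over its members, the Hnrnp family stood at 1572 to 2606 TPM in controls (median 2036), 2303 to 2919 in early disease (median 2563), 2326 to 3374 in late disease (median 2598) and 1853 to 2300.0 in recovery (median 2261). The Srsf sum ran from 832 to 1750.0 TPM in controls (median 1051), 1262 to 1515 in early disease (median 1325), 1099 to 3288 in late disease (median 1318) and 951 to 1291 in recovery (median 1177). Each disease group and recovery overlapped the controls for both families, while every recovery library had a lower Hnrnp sum than every early or late disease library. Late disease library 1 alone held the Srsf value of 3288 TPM, and the other late libraries ended at 1717. The TPM columns sum to less than 1e6 over the listed genes, and by the most in controls of date code 0810 (an outside share of up to 30.8%, against 2.32% to 4.58% in late disease). Rescaled to 1e6 over the listed genes, the Hnrnp medians were 2378 in controls, 2705 in early disease, 2693 in late disease and 2373 in recovery. On that scale the Hnrnp range in recovery (2033 to 2443) overlapped those of early disease (2436 to 3029) and late disease (2426 to 3454).

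Depth and purity bear on every comparison. Each library held between 13.9 M and 20.4 M expected counts (M, 1e6 counts). The genes of the sorting antigens were high throughout: Itgam (CD11b) ranged from 1040 to 2242 CPM in controls and from 1340 to 1952 CPM in late disease, where CPM is counts per 1e6 of the library size adjusted by edgeR's TMM factors, and Ptprc (CD45) from 330.4 to 502 and from 456 to 657 CPM. All 10 microglial markers examined were present in every group, and their sum was 62990 to 81540 CPM in controls and 45040 to 69100 CPM in late disease, where 5 of the 10 were called lower. In bulk samples, fewer cells of a type and less RNA per cell cannot be told apart. Neutrophil markers (11 genes) summed to a median of 1664 CPM in recovery against 0.815 CPM in controls and 1.37 CPM in late disease, with Elane and Mpo at 0 in all late libraries, and all 9 that could be tested were called higher in recovery and 0 in late disease. Monocyte markers (9 genes) summed to 6.51 to 26.3 CPM in controls, 32.0 to 158 CPM in late disease and 71.2 to 608 CPM in recovery, with 2 and 7 of 8 tested called higher in late disease and recovery. Oligodendrocyte markers (7 genes) summed to more, 1181 to 3429 CPM in controls and 2120 to 5270 CPM in late disease. Astrocyte markers (6 genes) summed to 217 to 1823 CPM in controls and 177 to 2728 CPM in late disease. Of those tested, 1 of 6 and 0 of 5 were called higher in late disease. The part of all these cells in the differences below was not tested. Controls also differ by the date code, which opens each sample title and is the Date column of the deposited design table: 9 of the 14 (all 6 rNLS8 controls and 3 WT) carry 0810, a code found in no disease library, whereas the other 5, all WT, carry 1019 or 1102, which early and late disease libraries share. All recovery libraries carry 0803 and no other group does, so recovery and its date cannot be told apart. Late disease libraries 1, 3 and 6 stood apart from the other 4 in many of the members described next, and the calls that ended without one of them are named.

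In early disease no member was called in the main test. Of 61 members, 0 passed edgeR's quasi-likelihood test at an adjusted p under 0.05, and 7 had an unadjusted p under 0.05; over all 13501 genes tested, 0.00741% were called and 12.6% had such a p. DESeq2 also called 0 members, but limma on TPM called 10 or 11 higher (8.01% and 7.07% of all genes called, by pseudocount) and rNLS8 controls alone gave 3 higher and 1 lower (5.48% of all genes). The median log2 fold change was 0.015 for Hnrnp, 0.086 for Srsf and 0.031 for Rbm genes, and -0.0024 for all genes. The lowest p-values belonged to 3 Hnrnp genes. Hnrnpd, whose product AUF1 binds AU-rich elements of cytokine and growth factor mRNAs, ran from 86.8 to 114 CPM in early disease (median 105) and from 62.1 to 102 CPM in controls (median 84.2), a log2 difference of 0.29 ± 0.09 (SE; edgeR adjusted p = 0.178). Hnrnpl had a log2 difference of 0.30 ± 0.11 (edgeR adjusted p = 0.231) and Hnrnpc one of -0.30 ± 0.12 (edgeR adjusted p = 0.266). The ranges overlapped for each of the 3, and the value of Hnrnpc turned to 0.017 when the TPM share outside the table was a covariate.

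In late disease 17 of the 61 members changed against all 14 controls, 10 of them higher and 7 lower. Of 20 Hnrnp genes 6 were higher and 1 lower, of 10 Srsf genes 3 were higher and 1 lower, and of 31 Rbm genes 1 was higher and 5 lower, and the remaining members did not pass the test. The difference between families was not tested. Of all genes tested, 15.4% were called, 9.01% higher and 6.39% lower, so the 17 members were 27.9% of their list. The family medians were 0.11 for Hnrnp, -0.17 for Srsf and -0.056 for Rbm genes on the log2 scale, beside 0.019 for all genes. No member separated late disease from control without overlap, which 0.281% of all genes did upward and 0.193% downward. The calls depended on which controls were used. All 17 kept their direction, but only Srsf10 was still called against the 5 controls of codes 1019 and 1102 (1.41% of all genes called), and none was called with the date code as a term (0.0303% of all genes called), where 10 of the 17 had an unadjusted p under 0.05. With a covariate for the TPM share missing from the table, Srsf10 was again the 1 member of the 17 still called (1.87% of all genes called). Over the 17, the median ratio to the log2 value of the main test was 0.779 with the 5 controls, 0.908 with the date term and 0.662 with the covariate. The median SE over the 61 members was 0.128 in the main test and 0.159, 0.191 and 0.166 in those settings.

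**Figure D1:**
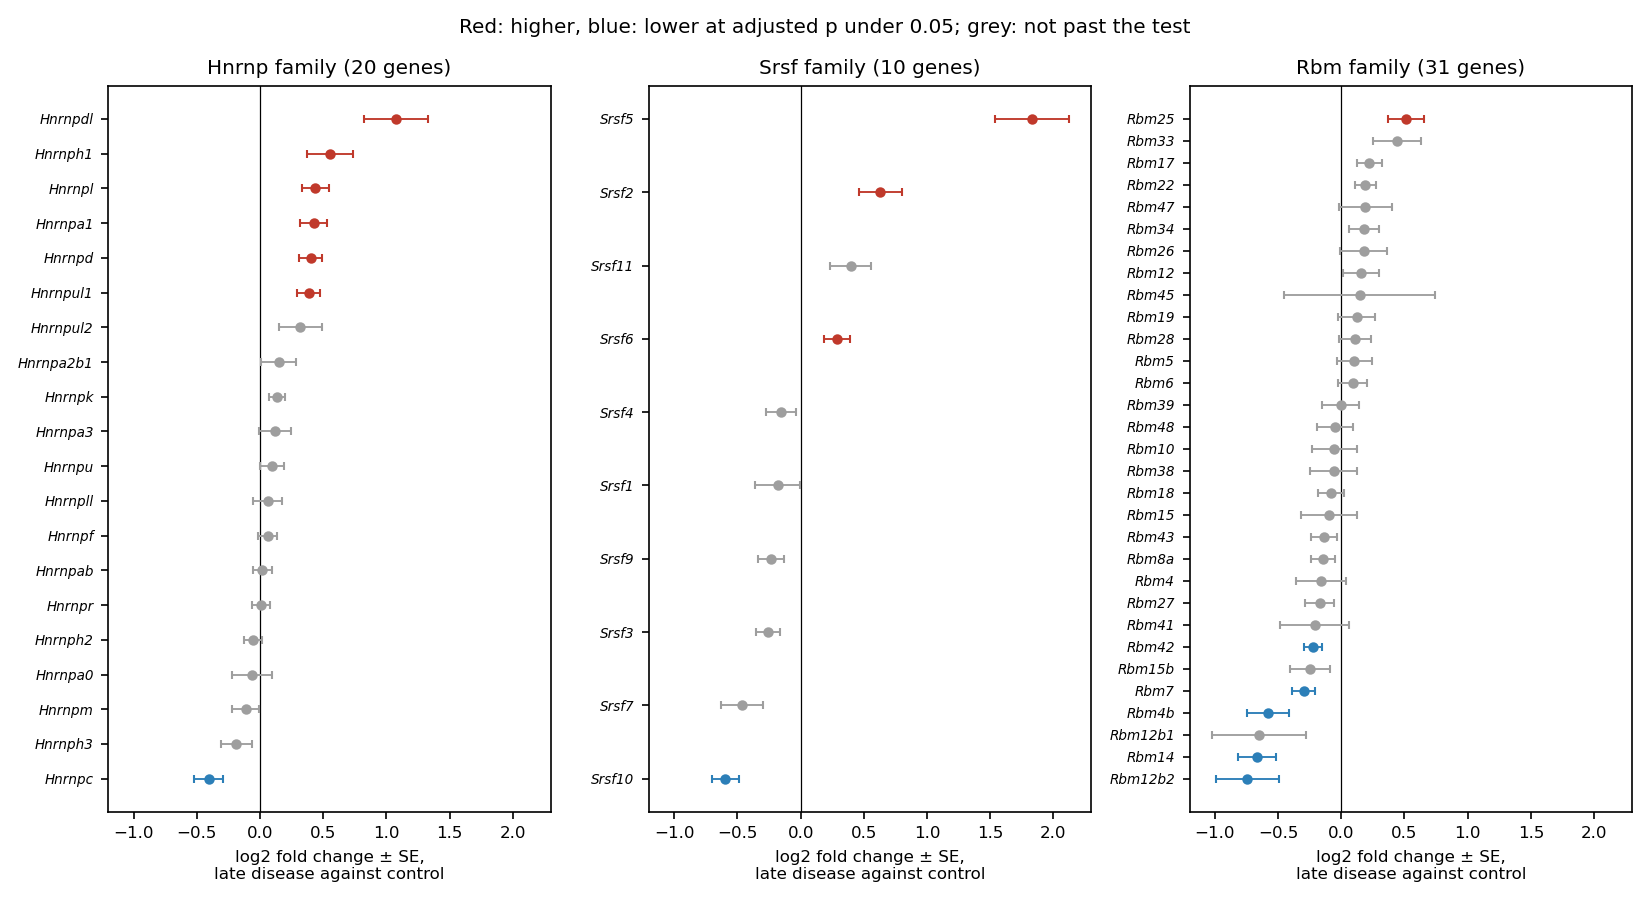
Log2 fold change ± SE (edgeR) of late disease against the 14 controls for each of the 61 members, by family, with red for higher, blue for lower and grey for members not past the test. Srsf5 lies farthest to the right at 1.83, and the 5 blue Rbm genes outnumber the 1 red one.

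Among SR proteins, which promote exon inclusion, Srsf5 had the greatest difference of the 61 members. It stood at 165, 231, 262, 263, 575, 794 and 1347 CPM in the late libraries and at 77.7 to 330.0 CPM in controls (median 123). Libraries 1, 3 and 6 were above every control and the other 4 were within the control range. The fitted log2 fold change was 1.83 ± 0.29, a fold of 3.56 (edgeR adjusted p = 0.000108). Without library 1 it was 1.42 (adjusted p = 0.000538), without library 3 it was 1.78 and without library 6 it was 1.71, all still called. The controls themselves fell into separate ranges by date code, 77.7 to 135 CPM for code 0810 and 157 to 330.0 CPM for codes 1019 and 1102. Against the latter 5 the log2 fold change was 1.22 ± 0.40 (edgeR adjusted p = 0.105).

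Srsf2, which encodes the nuclear speckle protein SC35, ran from 131 to 437 CPM in late disease (median 175) and from 109 to 277 CPM in controls (median 135). Late libraries 1 and 3 lay above all controls and the rest overlapped them. The log2 fold change was 0.63 ± 0.17 (edgeR adjusted p = 0.0116), and the call ended without library 1 (0.40, adjusted p = 0.0834) or without library 3 (0.55, adjusted p = 0.0512). Srsf2 overlaps the coding genes Mettl23 and Mfsd11 on the opposite strand, and these kits do not mark strand. Srsf6 ran from 78.8 to 171 CPM in late disease (median 97.1) against 80.7 to 110 CPM in controls (median 89.5), with a log2 fold change of 0.29 ± 0.10 at an edgeR adjusted p of 0.0491. That call ended when any of 29 of the 35 libraries was left out.

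Srsf10 went the other way and was the only called member to keep its call against the 5 controls of codes 1019 and 1102. Its protein, also known as SRp38, acts as a splicing repressor when it loses its phosphates. It stood at 45.4, 59.5, 62.4, 64.1, 82.8, 84.1 and 90.5 CPM in the late libraries against 83.6 to 124 CPM in controls (median 107). All 7 late libraries lay below all 5 controls of codes 1019 and 1102, which ran from 97.5 to 112 CPM. How many of all genes did so against these 5 was not computed. The log2 fold change was -0.60 ± 0.11 against all controls (edgeR adjusted p = 0.000415), -0.59 ± 0.14 against those 5 (adjusted p = 0.0352) and -0.54 ± 0.17 with date as a term (adjusted p = 0.273). Leaving out any single library kept the call. Over 12 alternatives its log2 value ran from -0.64 to -0.057, and 9 kept the call, as for several other members. In TPM it hardly differed, with a mean of 64.2 in controls and 63.2 in late disease. Late library 1 held 101 TPM, above the highest control at 82.8 TPM. Srsf7 and Srsf3, named here after their values were seen, just missed the test at log2 values of -0.47 (edgeR adjusted p = 0.0512) and -0.26 (adjusted p = 0.0535). Both were highest in late library 1, at 140 and 247 CPM, against medians of 63.6 and 168 CPM over the 7 late libraries. Without that library their log2 values were -0.69 (adjusted p = 0.00192) and -0.34 (adjusted p = 0.00977).

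**Figure D2:**
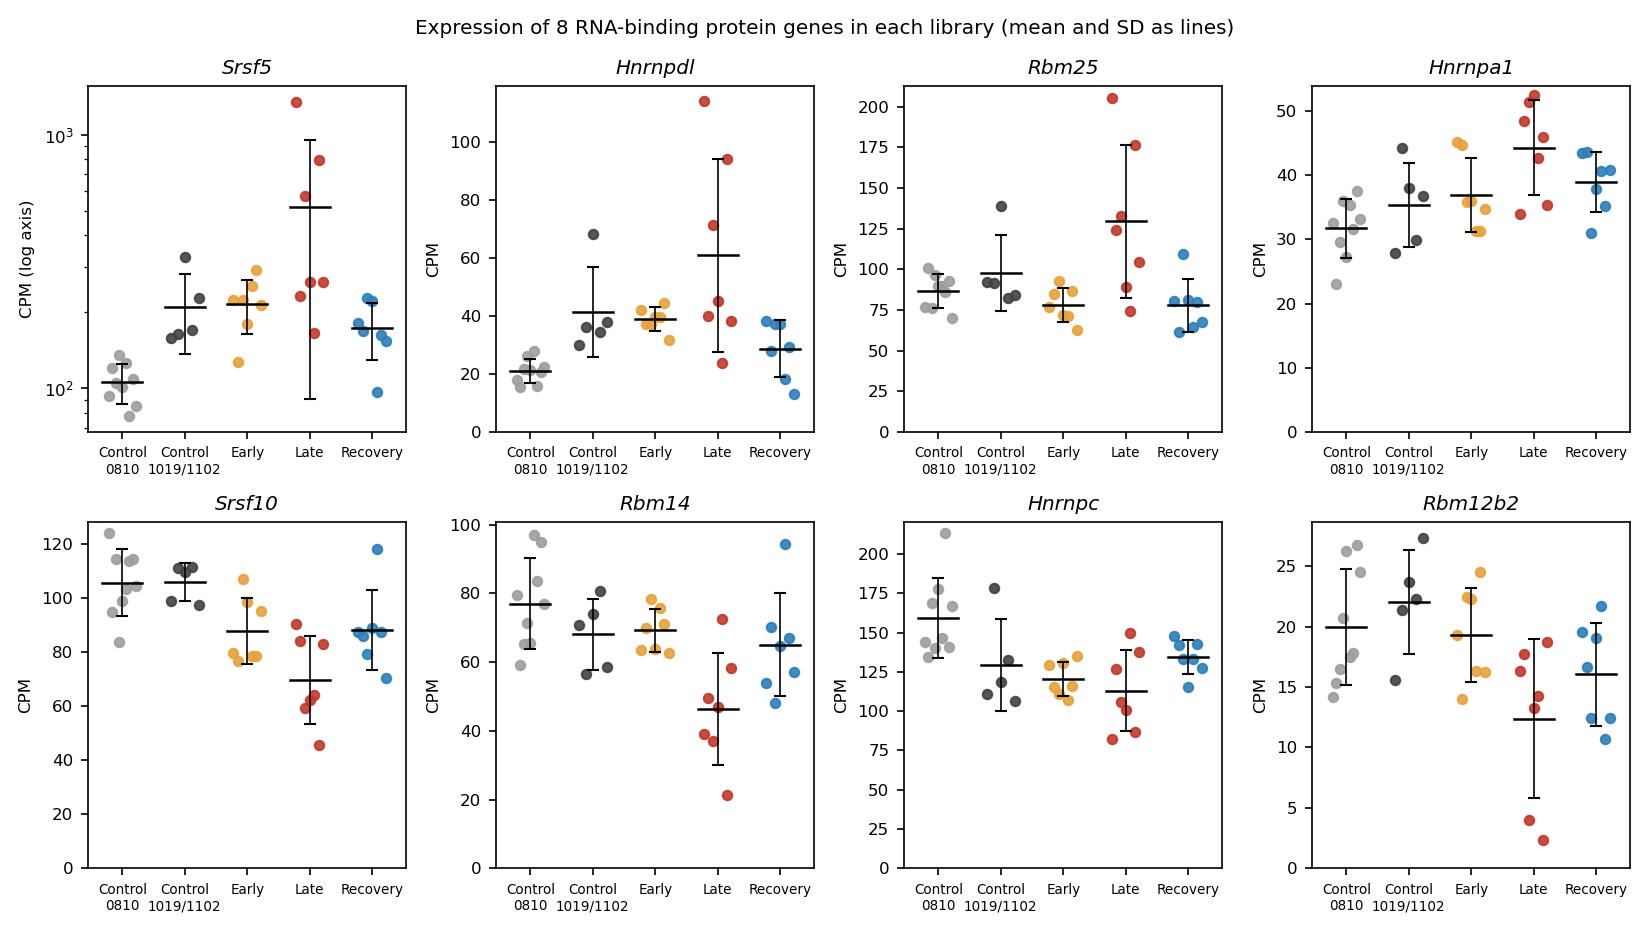
CPM of 8 members in each library (points), with the mean and SD as black lines, by group and with controls split by date code; the Srsf5 axis is logarithmic. Late disease is widely spread, with Srsf5 from 165 to 1347 CPM, and the Srsf10 points of late disease lie below all controls of codes 1019 and 1102.

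Of the Hnrnp genes that rose, 2 encode close relatives that bind AU-rich elements. Hnrnpdl ran from 23.8 to 114 CPM in late disease (median 45.0) and from 15.6 to 68.3 CPM in controls (median 24.2), and only late libraries 1, 3 and 6 exceeded every control. Its log2 fold change was 1.08 ± 0.25 (edgeR adjusted p = 0.00397), and it was 0.87 (adjusted p = 0.0196) without library 1, 1.01 without library 3 and 0.96 without library 6, all still called. As with Srsf5, its controls split by date code without overlap, 15.6 to 27.8 CPM for code 0810 and 29.8 to 68.3 CPM for the others. Against the latter the log2 value was 0.50 ± 0.31 (edgeR adjusted p = 0.42). Such splits were not rare among the WT controls alone, where code 0810 lay wholly below the other codes for 4.43% of all genes. It lay wholly above them for 3.56%. Hnrnpd ran from 86.1 to 134 CPM in late disease (median 110), above every control in 5 of 7 libraries. Its log2 fold change was 0.40 ± 0.09 (adjusted p = 0.0036).

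The other Hnrnp genes that rose differed less. Hnrnpl, which binds CA-rich RNA and regulates the splicing of Ptprc, ran from 128 to 193 CPM in late disease against 81.5 to 154 CPM in controls, and its log2 fold change was 0.44 ± 0.11 (edgeR adjusted p = 0.00556). Hnrnpa1, a repressor that promotes exon skipping, ran from 33.9 to 52.5 CPM in late disease (median 46.0) against 23.01 to 44.2 CPM in controls (median 32.9), with 4 late libraries above every control. Its log2 fold change was 0.42 ± 0.11 (adjusted p = 0.00676), and unlike Srsf5 its lowest late value was in library 1. Hnrnpul1, a relative of hnRNP U that takes part in the repair of DNA ends, ran from 77.8 to 136 CPM against 58.6 to 92.5 CPM in controls (log2 0.39 ± 0.09, adjusted p = 0.00466). Hnrnph1, which binds runs of guanine, ran from 54.7 to 191 CPM against 44.1 to 120 CPM in controls, and library 1 alone was above all controls (log2 0.55 ± 0.18, adjusted p = 0.0369). Against the controls of codes 1019 and 1102 its log2 value was 0.21 ± 0.23 (edgeR adjusted p = 0.691). That call ended without late libraries 1 or 3 or without any of Controls 1, 2, 3, 8 and 9. All 10 members that rose had a higher mean in the controls of codes 1019 and 1102 than in those of code 0810, as did 2 of the 7 that fell. The members were picked by their difference from a pool mostly of code 0810, so these counts are not independent of that choice. The share over all genes was not computed.

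Hnrnpc was the single Hnrnp gene that fell. Its protein binds uridine tracts in nascent transcripts and measures their length. It ran from 82.3 to 150 CPM in late disease (median 106) against 107 to 214 CPM in controls (median 143), with 4 late libraries below every control. The log2 fold change was -0.41 ± 0.12 (edgeR adjusted p = 0.0161), it was -0.21 ± 0.14 against the controls of codes 1019 and 1102 (adjusted p = 0.44), and the call ended without late library 6. With the covariate for the missing TPM share, the log2 value was -0.075 ± 0.12 (edgeR adjusted p = 0.824).

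Rbm14 fell furthest among the Rbm genes with a stable call. It encodes a paraspeckle protein that also acts as a transcriptional coactivator. It stood at 21.4, 37.0, 39.1, 47.1, 49.6, 58.2 and 72.5 CPM in the late libraries and at 56.5 to 96.8 CPM in controls (median 72.6). In 5 of the 7 late libraries it was below every control, and library 6 was lowest. The log2 fold change was -0.67 ± 0.15 (edgeR adjusted p = 0.00304), and it stayed called without any single library. Rbm4b, its neighbour on chromosome 19 and a paralogue of the splicing regulator Rbm4, ran from 9.79 to 28.7 CPM in late disease against 15.7 to 44.0 CPM in controls (log2 -0.58 ± 0.16, adjusted p = 0.0142). Both overlap the annotated coding gene Gm21992, so their counts are uncertain to the extent that reads are shared with it.

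Rbm7 belongs to the nuclear exosome targeting complex, which hands RNA to the exosome for degradation. It ran from 62.5 to 91.7 CPM in late disease against 66.9 to 109 CPM in controls (log2 -0.30 ± 0.09, edgeR adjusted p = 0.0272). Rbm42 ran from 69.2 to 95.4 CPM against 81.0 to 116 CPM (log2 -0.22 ± 0.07, adjusted p = 0.036). Rbm12b2 stood at 2.33 and 3.96 CPM in late libraries 6 and 3 and at 13.3 to 18.7 CPM in the other 5, against 14.2 to 27.4 CPM in controls (log2 -0.74 ± 0.25, adjusted p = 0.0406). Its near copy Rbm12b1 and the overlapping gene Tmem67 make that value uncertain. These 3 calls were fragile: the Rbm7 call ended without any 1 of 4 libraries (Late disease 1, 3, 5 and 6), that of Rbm42 without any of 8 (Controls 3, 6, 7, 9 and 11 and Late disease 1, 2 and 5) and that of Rbm12b2 without any of 7 (Controls 5, 8, 9 and 14 and Late disease 3, 4 and 6).

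Rbm25 was the single Rbm gene that rose. Its protein binds exonic RNA, interacts with the U1 snRNP and regulates the choice of splice site in the apoptosis gene Bcl2l1. It stood at 74.4, 89.3, 104, 124, 133, 177 and 206 CPM in the late libraries, at 69.9 to 139 CPM in controls (median 89.9), at 62.6 to 93.0 CPM in early disease (median 77.1) and at 61.6 to 110 CPM in recovery (median 79.7). Late libraries 1 and 6 exceeded every control. The log2 fold change against controls was 0.51 ± 0.14 (edgeR adjusted p = 0.0136), and the call ended without library 1 (0.37, adjusted p = 0.0686) or without library 6 (0.43, adjusted p = 0.0531).

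**Figure D3:**
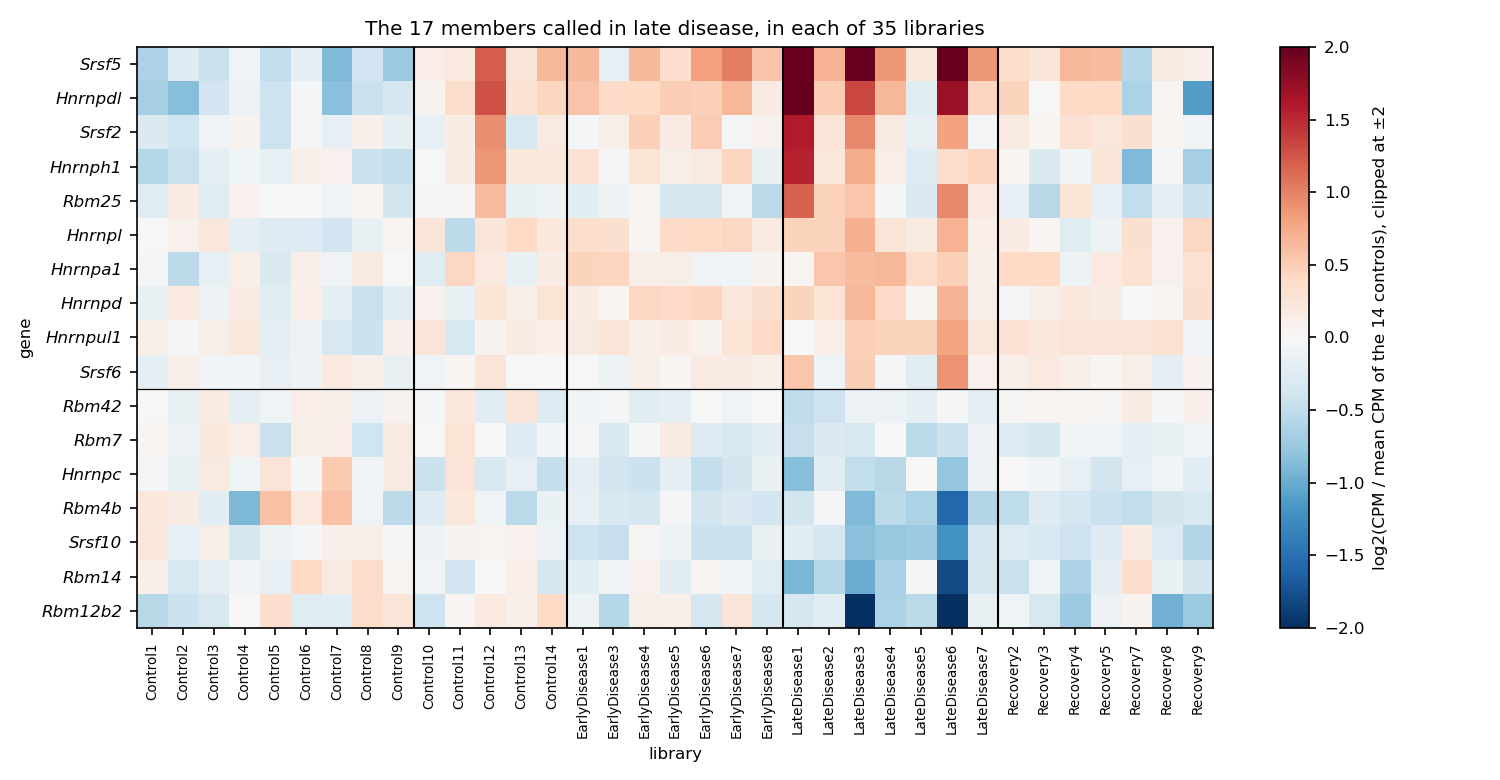
Log2 of CPM over the mean CPM of the 14 controls for the 17 members called in late disease (rows) in each of the 35 libraries (columns), with lines between the 0810 controls, the other controls, early disease, late disease and recovery. The members above the horizontal line rose, and colour is deepest in late disease libraries 1, 3 and 6, with Control 12 the most like them among controls.

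Few libraries carried much of the late pattern. Library 3 was among the 3 highest late libraries for all 10 members that rose, library 6 for 8 and library 1 for 7, and library 6 was lowest for 4 of the 7 that fell. Control 12 was the highest control for 6 of the 10 that rose. The members were picked by their late difference, so these counts of libraries are not independent of that choice. The same counts over all genes were not computed. The microglial marker sum was 47380 CPM in late library 1, 59010 in library 3 and 45040 in library 6, against 59440 to 69100 CPM in other late libraries. In Control 12 it was 62990 CPM, the lowest of the controls. Monocyte markers summed to 158 CPM and oligodendrocyte markers to 5270 CPM in library 6, the highest late values of both. In library 1 oligodendrocyte markers summed to 2120 CPM, the lowest late value. Astrocyte markers summed to 177, 597 and 244 CPM in libraries 1, 3 and 6, and to 1210 to 2728 CPM in other late libraries. Control 12 held 1556 CPM of them, within the control range of 217 to 1823 CPM. Low sums also occurred in Early disease 3, 4 and 7 (218, 162 and 173 CPM) and in Controls 4, 5 and 8 (229, 356 and 217 CPM). Other early libraries held 1088 to 1531 CPM and other controls 1336 to 1823 CPM. Without library 1, 11 of the 17 were still called (12.5% of all genes called), and without library 3 or library 6, 12 of the 17 (9.73% and 10.1% of all genes called). The part of these marker levels in the members' values was not tested.

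**Figure D4:**
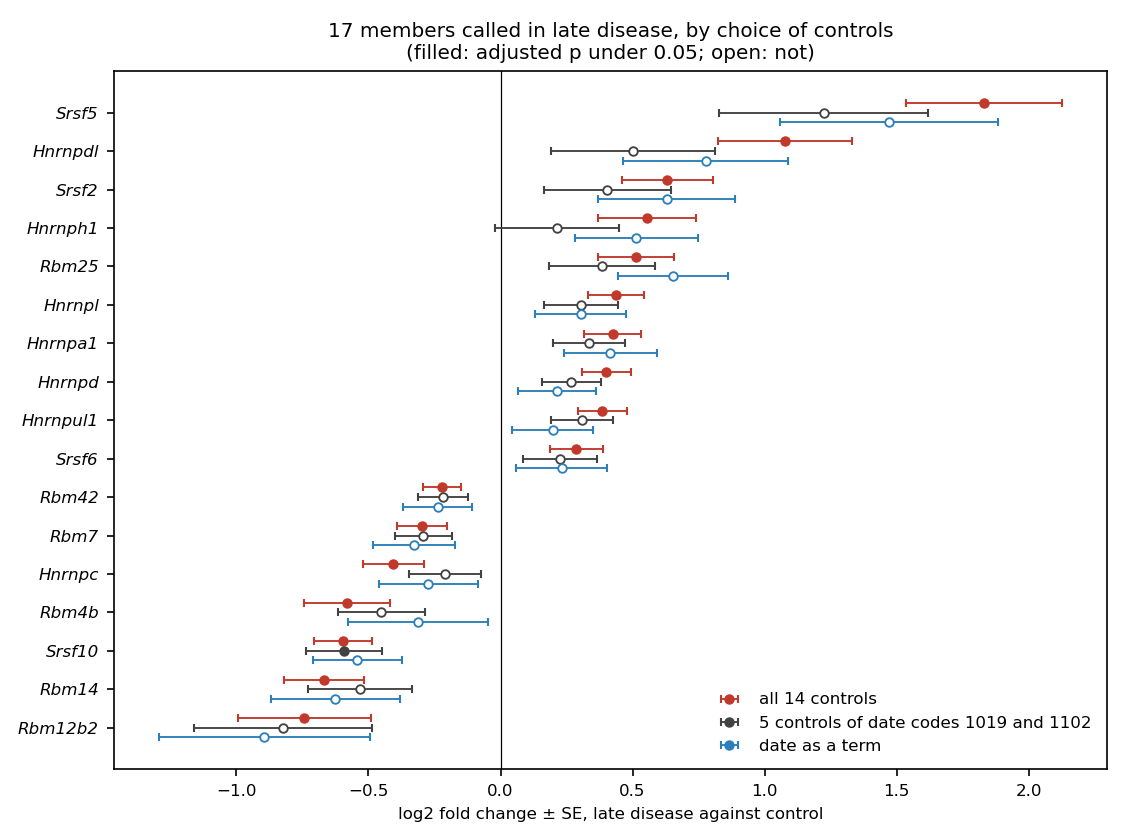
Log2 fold change ± SE (edgeR) of late disease for the 17 called members against all 14 controls (red), against the 5 controls of date codes 1019 and 1102 (grey) and with the date code as a term (blue), where filled points have an adjusted p under 0.05. All points keep their side of 0, and outside the red points only Srsf10 is filled.

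Late and early disease libraries share the codes 1019, 1102 and 1130, so this comparison is the least tied to the date. One member was called, Rbm25, where 0.741% of all genes were. Its late values were above all early values in 5 of 7 libraries, and the log2 difference was 0.73 ± 0.17 (edgeR adjusted p = 0.0344). With date as a term it was 0.76 (adjusted p = 0.0362). The call ended without Early disease 1, 5, 6 or 8 or Late disease 3 or 6. Srsf5 had the next lowest p with a log2 difference of 1.24 ± 0.35 (adjusted p = 0.0719). Rbm14 followed with -0.58 ± 0.17 (adjusted p = 0.0867), below all early values in 6 of 7 late libraries. The share of all genes with 5 or 6 of 7 late libraries beyond all early values was not computed. A stricter count, all 7 below, held for 0.356% of all genes. Family medians were 0.086 for Hnrnp, -0.22 for Srsf and -0.025 for Rbm genes, beside 0.030 for all genes.

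In recovery no member differed from control by the test: 0 of 61 were called by edgeR and by DESeq2, 10 had an unadjusted p under 0.05, and 3.98% of all genes were called (2.87% higher, 1.1% lower) and 17.4% had such a p. The lowest p-values belonged to Hnrnpul2 (8.04 to 14.1 CPM against 4.26 to 11.5 CPM in controls, log2 0.43 ± 0.17, edgeR adjusted p = 0.162), Rbm18 (50.6 to 67.7 CPM against 45.2 to 102 CPM, log2 -0.26 ± 0.10, adjusted p = 0.166) and Hnrnph3 (14.3 to 21.9 CPM against 14.9 to 27.8 CPM, log2 -0.30 ± 0.12, adjusted p = 0.171). All 3 overlapped their controls.

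Recovery set against late disease, a comparison added after the data were seen, gave 2 members lower and 0 higher where 0.585% of all genes were called (0.244% lower, 0.341% higher). Srsf5 ran from 96.3 to 227 CPM in recovery (median 168) and its log2 difference was -1.57 ± 0.35 (edgeR adjusted p = 0.0311). Rbm25 had a log2 difference of -0.73 ± 0.17 (adjusted p = 0.0312). Hnrnpdl, at 12.96 to 38.3 CPM in recovery, had -1.07 ± 0.30 (adjusted p = 0.0803). Without late library 1 the Srsf5 value was -1.14 (adjusted p = 0.109) and the Rbm25 value -0.59 (adjusted p = 0.106), and both calls also ended without Late disease 3 or 6 or without Recovery 2, 3, 7 or 9. Rbm42 and Rbm8a, a core protein of the exon junction complex, were not called, but all 7 recovery libraries exceeded all late ones (96.8 to 109 against 69.2 to 95.4 CPM and 55.9 to 63.5 against 45.7 to 53.3 CPM), which 0.415% of all genes did.

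Other genes of RNA processing were read from 9 lists of 84 genes, of which 81 were tested. In late disease 13 were higher and 6 lower (9.01% and 6.39% of all genes; median log2 0.19, against 0.019 for all genes). In early disease 0 were called (0.00741% of all genes), and in recovery 1 was higher and 3 lower (2.87% and 1.1% of all genes). The late calls of listed genes, here and below, were made against the pooled controls. With date as a term, 4 of 13211 genes were called in late disease, 4 higher and 0 lower. None of the 6 lower calls was therefore kept there, and at most 4 of the 13 higher ones. Against the controls of codes 1019 and 1102 only, 1.41% of all genes were called. The calls of listed genes in that setting are not given here. Of the 19 late calls, 12 held without late library 1, which ended those of Pnn, Srrm2, Son, Clk1, Sf3b1, Upf3b and Celf2. Without library 3 those of Clk1, Son and Celf2 ended, without library 6 those of Son and Celf2, and without library 4 or 7 that of Celf2. Ewsr1, which encodes an RNA-binding protein that also acts in transcription, rose in late disease (log2 0.50 ± 0.12, edgeR adjusted p = 0.00495). Tardbp, the mouse gene of TDP-43, did not pass the test: it ran from 36.4 to 151 CPM in late disease (median 45.0) and from 30.8 to 70.6 CPM in controls (median 43.0), with a log2 value of 0.40 ± 0.20 (adjusted p = 0.184). The human transgene was not measured separately here.

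SR-like and nuclear speckle proteins were the list with the most calls in late disease, 5 higher and 1 lower of 14. The scaffold genes Srrm1 (log2 0.56 ± 0.13, edgeR adjusted p = 0.00371), Srrm2 (0.41 ± 0.11, adjusted p = 0.0137), Pnn (0.81; 0.47 without library 1, adjusted p = 0.14) and Son (0.33; 0.21 without library 1, adjusted p = 0.127) and the helicase gene Ddx39b (0.30 ± 0.07, adjusted p = 0.00387) were higher. Tra2b, a splicing activator related to SR proteins, was lower at 88.4 to 130 CPM against 134 to 223 CPM in controls (log2 -0.58 ± 0.11, adjusted p = 0.000704). Against early disease Tra2b was also lower (-0.50, adjusted p = 0.0477) and Srrm2 higher (0.53, adjusted p = 0.0477). In recovery against late disease, Srrm2 (-0.61, edgeR adjusted p = 0.03) and Son (-0.48, adjusted p = 0.0482) were lower.

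Of 8 SR protein kinases, which phosphorylate the serine/arginine-rich tails, 1 was called in late disease, Clk1 (log2 0.60 ± 0.19, edgeR adjusted p = 0.0266; 0.27 without late library 1, adjusted p = 0.234). Among 15 hnRNP-related proteins with other names, Ptbp1 was higher (0.33, adjusted p = 0.00504) and Elavl1 (-0.41, adjusted p = 0.00312) and Pcbp1 (-0.24, adjusted p = 0.0132) were lower. U2 snRNP and splice site factors gave 2 higher, Sf3b2 (0.32) and Sf3b1 (0.55), and 1 lower, Snrpb2 (-0.46), of 12. Nonsense-mediated decay factors gave 2 higher, Smg5 (0.59) and Upf3b (0.85), of 12, and U1 snRNP and paraspeckle proteins gave 0 of 5 and 0 of 4 in edgeR, each with 1 gene at an unadjusted p under 0.05. Among 7 other splicing regulators tested, Mbnl2 (-0.42) and Celf2 (-0.22) were lower in late disease, and both were also lower in recovery (-0.35 and -0.31), together with Mbnl1 (-0.36). Raly was the gene higher in recovery (0.80, adjusted p = 0.0412).

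Checks of the design gave no call among the members. In the 14 controls, rNLS8 mice on doxycycline against WT mice gave 0 members called by edgeR and 4 with an unadjusted p under 0.05 (0.00805% and 7.48% of all genes). All 6 of these rNLS8 mice carry code 0810 and 5 of the 8 WT mice carry 1019 or 1102, so genotype, diet and code were mixed there. In the 8 WT controls, code 0810 against the other codes gave 0 members called and 6 with an unadjusted p under 0.05 (0.0235% and 9.45% of all genes). The lowest p-values there belonged to Srsf5 (log2 -0.97 ± 0.23, edgeR adjusted p = 0.237) and Hnrnpdl (-1.15 ± 0.28, adjusted p = 0.243), and the diet differed with the code. An interaction of sex and group gave 0 members called in each group, with 0, 4 and 2 members at an unadjusted p under 0.05 in early disease, late disease and recovery (2.44%, 4.95% and 5.23% of all genes). In late disease all females (3) carry code 1102 and the males carry 1019 (1) or 1130 (3). Sex and date code therefore cannot be told apart in that group.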

How the data were processed

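The authors deposited expected counts (estimated fragments per gene, not normalized) and TPM values for 45706 genes in 35 libraries, with a design table that gives sex and a count of alignments per library. RSEM, DESeq2 and the build mm10 are named per the submitters' processing notes, with versions not given in the sources used here. Libraries came from SMART-Seq Ultra Low-input and NexteraXT kits, per the labels' protocols, and carry no strand or molecular identifiers. Paralogues and genes with processed pseudogenes share reads that RSEM apportions, which makes their values less certain. Expected counts were rounded and tested with edgeR 4.0.16 (R 4.3.3; TMM, filter on low counts by group, quasi-likelihood F test, model of group and the sex in the labels, all 35 libraries), with Benjamini-Hochberg adjustment over the 13501 genes kept and calls at an adjusted p under 0.05. CPM values use the same library sizes. Standard errors were derived from the F statistic. Alternatives were RLE factors, DESeq2 1.42.0, limma 3.58.1 on log2(TPM + 1) or log2(TPM + 0.1) (1 TPM or more in 6 libraries), no filter, date as a term (recovery dropped, 28 libraries), other choices of controls, the design table's sex (which differs in 2 libraries), a covariate for the TPM share outside the table, a replicate block and leaving out each library. In simulated counts for late disease against control, 65% of genes changed 2-fold and 38% of those changed 1.5-fold were recovered. Labels do not say in words that each library is a separate mouse, so p-values measure the spread between libraries. Named members are those called in a comparison (or the 3 of lowest p), the 3 of highest mean TPM per family and those next to the count limit. From the lists, genes past the test (up to 4 per list, in order of p) and Tardbp are named, with further called genes added, and 1 listed gene is not reported here. Members and lists were chosen with earlier results of these data known.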

Additional observations from a re-analysis of the deposited data

Results flagged for a closer look

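Over 69 sets of values (20 named members and the family sums, in each disease group or recovery), 8 held a library whose gap to the nearest other exceeded Dixon's limit, and chance flags about 1 in 20 such sets. In late disease, Hnrnph1 stood at 190.8 CPM in library 1 against 54.7 to 109.5 CPM in the others, the Srsf family sum at 3288 TPM in library 1 against 1099 to 1717 TPM, and Rbm18 at 91.66 CPM in library 6 against 58.8 to 65.5 CPM. In early disease, Rbm18 stood at 76.26 CPM in library 8 against 61.9 to 67.3 CPM. In recovery, Rbm25 stood at 109.5 CPM in library 4 against 61.6 to 80.9 CPM, and Srsf10 at 118.2 CPM in library 7 against 70.3 to 88.8 CPM. Recovery library 9 was low for Hnrnpul1, at 74.29 CPM against 91.1 to 96.9 CPM, and for the Hnrnp family sum, at 1853 TPM against 2129 to 2300.0 TPM.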

How the results depend on the processing

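Depth was 13.9 M to 20.4 M counts per library (M, 1e6). Of the 17 late members, 17 kept their direction in all 12 alternatives, and the number still called was 17 with RLE factors, DESeq2 or the design table's sex, 15 with the replicate block, 13 without a filter or with rNLS8 controls only, 12 with limma, 8 with WT controls only, 1 with the 5 controls of codes 1019 and 1102 or with the TPM share as a covariate, and 0 with date as a term. Limma on TPM moved the median of all genes by 0.22 (early disease) and 0.18 (late disease) on the log2 scale, and members read against that shift. The cause was not tested for any of the changes listed here.

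Members called higher in early disease (0) became 10 and 11 with limma at log2(TPM + 1) and log2(TPM + 0.1) (7.7% and 6.82% of all genes), and 3 with rNLS8 controls only, where 1 was lower (2.97% and 2.51%). In late disease the 10 higher became 18 and 18 with limma (19.6% and 18.6% of all genes), 0 with date (0.0303%), 0 with the 5 controls (0.864%), 4 with WT controls (4.3%) and 0 with the TPM share (1.27%). The 7 lower became 2 and 2 (1.48% and 1.4%), 0 (0%), 1 (0.546%), 4 (3.28%) and 1 (0.593%) in the same settings, 4 without a filter (2.42%) and 4 with rNLS8 controls only (6.74%). In late against early disease, DESeq2 called 2 higher and 1 lower (1.05% and 0.373%), and members called higher were 0 with limma at both pseudocounts (0.379% and 0.182%), 0 with the 5 controls (0.583%), 0 with WT controls (0.481%) and 2 with the TPM share (0.867%). In recovery against late disease, DESeq2 called 1 higher and 4 lower (0.696% and 0.719%), and limma 0 lower at both pseudocounts (0.394% and 0.152%).

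Median log2 values under limma (TPM + 1, then TPM + 0.1) were 0.2964 and 0.2974 (Hnrnp), 0.3049 and 0.3089 (Srsf) and 0.1948 and 0.1989 (Rbm) in early disease, and 0.3334 and 0.3372 (Hnrnp) and 0.119 and 0.1351 (Rbm) in late disease. In recovery against control the Hnrnp median was 0.1088 at TPM + 0.1. In recovery against late disease they were -0.2499 and -0.2519 (Hnrnp), -0.0695 and -0.0705 (Srsf) and -0.171 and -0.1736 (Rbm). The early Hnrnp median was 0.0853 with rNLS8 controls only, and the Srsf median with the 5 controls was -0.0304 in early disease and -0.1638 in recovery, where the TPM share gave -0.1731. Hnrnpc in early disease turned from -0.30 to 0.0173 with the TPM share.

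Leaving out 1 library at a time, members called in late disease ranged from 6 (without Late disease 1) to 12 higher and from 4 (without Late disease 6) to 8 lower, and those in recovery from 0 to 1 higher. In late against early disease they ranged from 0 to 2 higher and 0 to 1 lower, and in recovery against late disease from 0 to 1 higher and 0 (without Late disease 1) to 4 lower (without Late disease 5). The early Rbm median ranged from -0.0424 to 0.0477, and the Hnrnp median in recovery against late disease from -0.1487 to -0.0594.

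Replicate numbers did not pair the libraries (correlations of same-numbered libraries from -0.282 to 0.167). With the replicate number as a block, early disease gave 2 members higher and 1 lower (2.58% and 1.96% of all genes; Hnrnp median 0.0679), late disease 10 higher and 8 lower (10.6% and 7.27%), recovery 1 higher (4.41%), late against early disease 0 (0.215%) and recovery against late disease 0 lower (0.00741%).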
